A study of Mus musculus with 10 samples.

Results

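The locus of Tnfaip3 was described here across 9 chromatin immunoprecipitation sequencing (ChIP-seq) lists, as every region that overlapped the window of chromosome 10 from 18620000 to 18840000 on mm9, a stretch of 220 kb drawn around the gene. It held 40 of the 114312 regions in those lists, and no input DNA region lay in it. The regions were chosen by position, but the locus itself was selected on earlier results of these data, among them the RelA scores of its strongest region, so the levels below are a description.

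Macrophages cultured from C57BL/6J bone marrow were treated with dexamethasone (Dex, a synthetic glucocorticoid), lipopolysaccharide (LPS, a part of the outer membrane of bacteria that switches on NF-κB by way of Toll-like receptors) or both. RelA, the p65 subunit of NF-κB, was profiled with Dex given 3 h before LPS (pretreatment) after 0, 3 and 8 h of LPS, with Dex given late at 8 h of LPS, and without Dex at 0, 3 and 8 h of LPS. The glucocorticoid receptor (GR) was profiled with LPS plus Dex and with Dex alone. The labels give neither the hour of the late Dex nor the times of the GR samples, and the names of some lists carry further times that they do not explain. Each condition had 1 library, so there is no spread between replicates, no test was made, and every difference is one between libraries. Depth is not stated in the labels or the lists.

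Tnfaip3 encodes A20, a cytoplasmic enzyme that edits ubiquitin chains on signalling proteins upstream of the IκB kinase and so damps NF-κB signalling. It is a classic NF-κB target gene: the factor induces its own inhibitor, and the loop limits the response of macrophages to LPS. GR is a nuclear receptor that binds DNA at its own response elements and can also be held at chromatin through other factors, including NF-κB. RefSeq places Tnfaip3 between Perp, a gene of a p53-induced membrane protein, and the long non-coding RNA gene Gm51814. That table is on GRCm38.p6, another build than the lists, so the sites below were not assigned to a promoter, exon or intron.

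RefSeq lists 2 starts of Tnfaip3, and the 250 bases before the first are shown because NF-κB acts on this gene through its promoter. Capitals mark matches to κB motifs on either strand. The stretch is chr10:19015411-19015660 on GRCm38.p6, minus strand, positions that cannot be set beside those of the lists.
Tnfaip3 promoter: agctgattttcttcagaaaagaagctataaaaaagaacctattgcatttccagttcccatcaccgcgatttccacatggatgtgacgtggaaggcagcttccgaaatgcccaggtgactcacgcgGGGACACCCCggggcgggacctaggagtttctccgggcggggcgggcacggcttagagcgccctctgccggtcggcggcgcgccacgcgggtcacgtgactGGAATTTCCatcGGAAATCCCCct

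The NF-κB consensus motif was matched by GGGACACCCC, beginning 125 bases before the start, and on the other strand by GGAAATCCCC, beginning 12 bases before it. The motif GGAANTTCC was matched by GGAATTTCC, beginning 24 bases before the start and overlapping neither of the others. Of the 32851 promoter stretches in the table, 7.25% held the NF-κB consensus and 0.813% held GGAANTTCC on either strand. The AP-1 motif TGANTCA (6.75% of stretches) was matched once, beginning 136 bases before the start, and CACGTG (6.02%) once, beginning 33 bases before it. The GR element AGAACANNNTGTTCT (0.00913%) was not found before either start, and its part AGAACA (16.1%) was found once, beginning 11 bases before the second start, before which no κB match was found. These are matches of letters and were not set against binding. The motifs were chosen with the sequence seen, so the shares do not show how unusual the matches are.

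The 40 regions formed 22 sites when regions sharing at least 1 bp were joined. RelA was called at 8 of them, GR at 6 of those 8, and 14 sites had GR alone. Every RelA site was called at 3 h of LPS without Dex, and only 1 was called in resting cells or after Dex pretreatment. That site, called central below, had the highest RelA score of the window at 3 h and lay at chromosome 10, 18734572 to 18735829 in that list. The other sites are named by the distance of their centre from it, to the left for lower coordinates and to the right for higher.

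**Figure D1:**
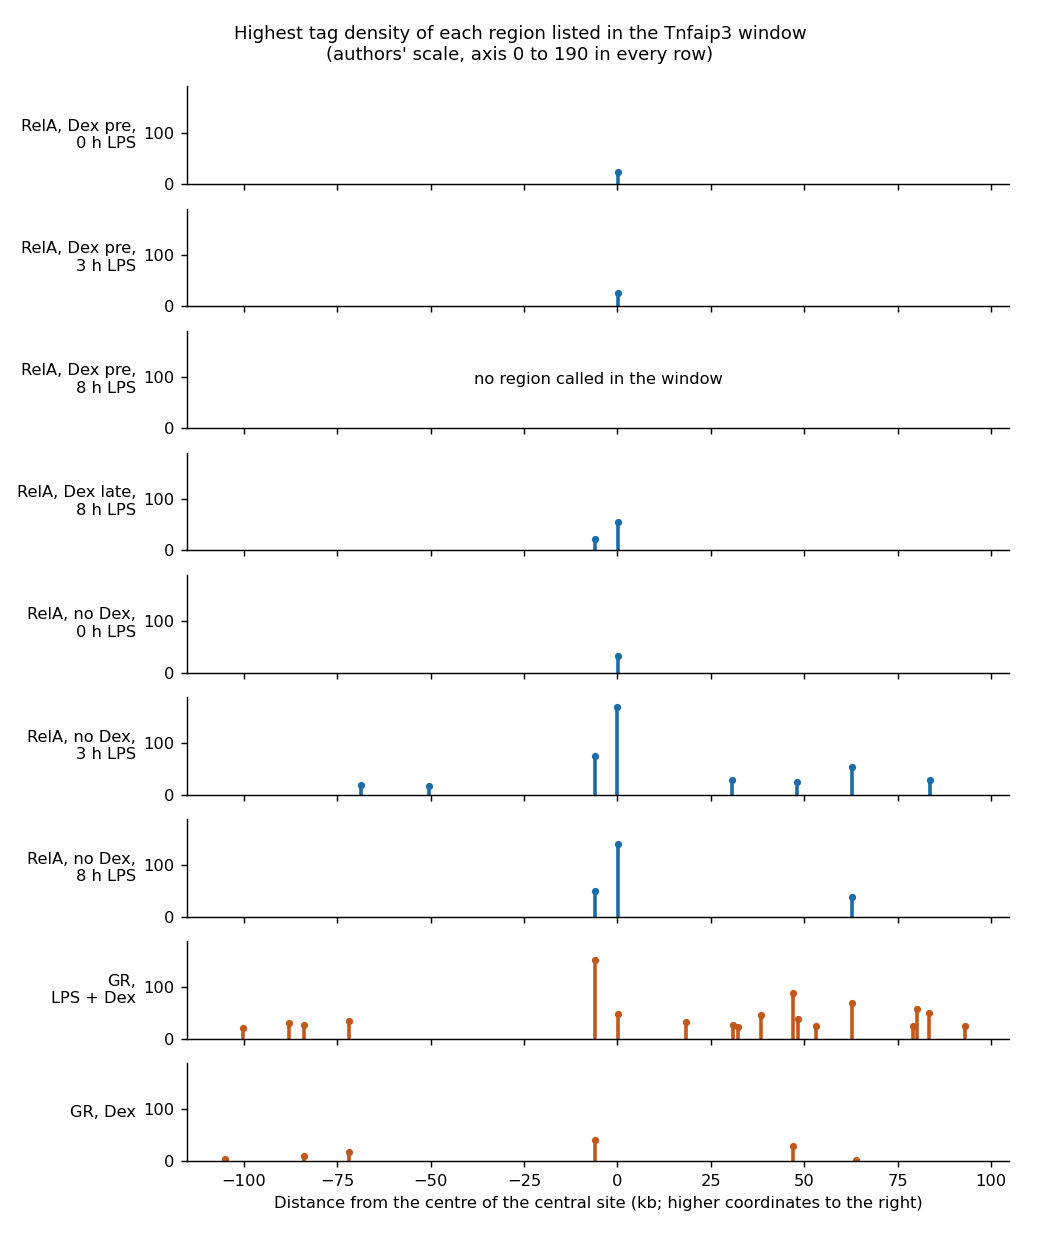
Highest tag density (authors' scale, vertical axis from 0 to 190 in every row) of each region in the window, against the distance of its centre from the central site in kb, with 1 row per library. RelA at 3 h without Dex has 8 regions, the pretreated libraries have 1, 1 and 0, and GR has 18 regions with LPS and Dex against 6 with Dex.

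RelA was called at the central site in resting cells, at higher density with LPS, and near the resting density in the pretreated 0 h and 3 h libraries. The highest RelA tag density, the peak of tags within a region on the authors' scale, was 23.7 with pretreatment alone and 25.7 with pretreatment and 3 h of LPS. No region was called there with pretreatment and 8 h. With late Dex and 8 h it was 55.5. Without Dex it stood at 31.9 before LPS, at 171 after 3 h and at 142 after 8 h. The 2 LPS libraries without Dex were thus the highest, the late Dex library came next, and the resting and pretreated libraries were the lowest. How the authors scaled densities between libraries is not stated, so each ratio below is given beside that of all regions that the same lists share outside input regions.

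**Figure D2:**
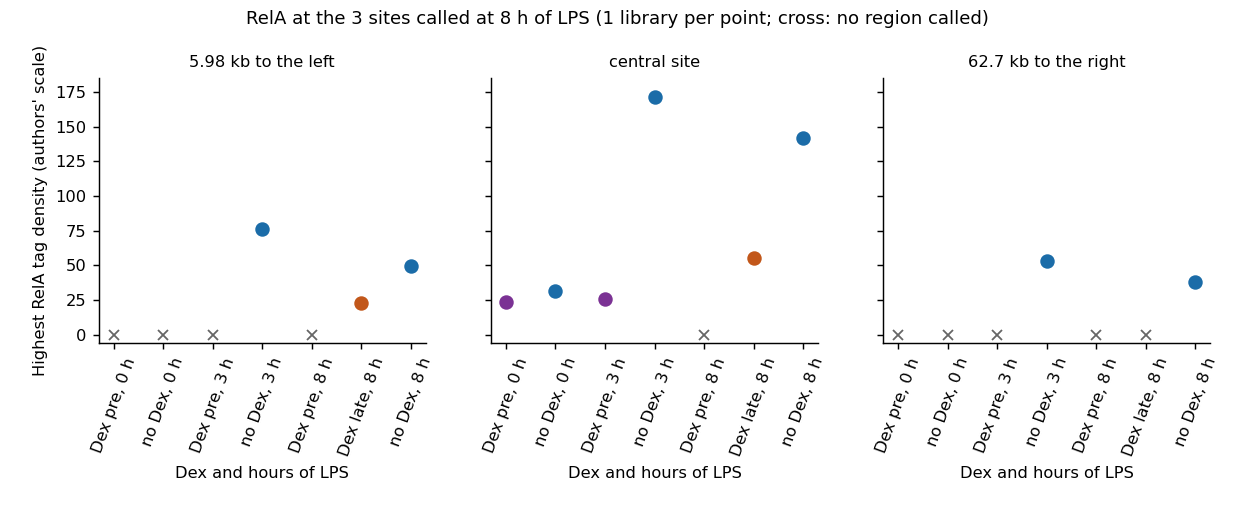
Highest RelA tag density (authors' scale) at the 3 sites called at 8 h of LPS, by Dex timing and hours of LPS. Each point is 1 library, and a cross marks a library with no region called, which is not a level of 0. The central site ranges from 23.7 to 171, and the outer sites were called without Dex at 3 h and 8 h, the left one also with late Dex.

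The rank of the central site within each list does not depend on the scaling between libraries. At 3 h without Dex it had the highest tag density of the 5017 regions and ranked 4 by score, the authors' z-score of a region, with a score of 109.9. At 8 h it ranked 3 by density and 5 by score (91.4) of 1890. With late Dex it ranked 5 by density and 11 by score (28.8) of 250. In resting cells it ranked 12 by density and 19 by score (17.8) of 83. With pretreatment it ranked 23 by density and 41 by score (12.6) of 75 at 0 h, and 17 by density and 12 by score (18.7) of 84 at 3 h. Lists of such unequal length make these ranks a description of each library, not a change between them.

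The ratio of LPS to resting density without Dex was greater at the central site than at most of the few regions called in resting cells. The 3 h library had 5.37 times the density of the 0 h library, a log2 ratio of 2.43, against a median of 1.75 (quartiles 1.37 and 2.12) over the 37 regions called at both times, and 5 of those had a higher ratio. At 8 h the ratio to 0 h was 4.46, a log2 ratio of 2.16, against a median of 1.68 over 36 regions. Only regions called at 0 h enter these medians, and those are 0.744% of the 3 h list. The central site was picked by its 3 h score at a locus chosen on such scores. A high ratio to 0 h is thus partly built in, and nothing is read from its place among these regions.

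With Dex pretreatment the level after 3 h of LPS was near that before LPS. The pretreated 3 h library had 1.08 times the density of the pretreated 0 h library, a log2 ratio of 0.12. It was the highest of the 7 regions called in both, whose median was -0.15. With so few regions, at a site chosen on RelA scores, nothing is read from that place. Against 3 h without Dex, pretreatment gave 0.150 times the density, a log2 ratio of -2.74. The median over the 12 regions called in both 3 h libraries was -2.22 (quartiles -2.76 and -1.86), and 3 of them had a lower ratio. Before LPS, pretreatment gave 0.744 times the density of resting cells, a log2 ratio of -0.43, against a median of -0.26 over 19 regions.

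The pretreated 8 h library is the one in which the central site was not called. Only 15 of its listed regions lay outside input regions, with a median density of 6.34 and a lowest of 2.11. The lowest score in the list was 9.18. Low minima were found in other lists too, such as 0.815 at 3 h without Dex, so they do not show what a library could detect. The pretreated 8 h library called 1 of the 20 regions with the highest 3 h score, a set that holds the central site itself. The pretreated 3 h library called 5 of those 20, the late Dex library all 20 and the resting library 11. Over the whole 3 h list outside input regions, these libraries called 0.0805%, 0.241%, 4.24% and 0.744%, in the same order. Of the 78 regions in the pretreated 8 h list, 80.8% met an input region, against 60.7% in the pretreated 3 h list and 42.7% in the pretreated 0 h list. The part of library quality in the missing call was not tested.

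Late Dex gave a level between those of resting cells and of 8 h without Dex. The late Dex library had 0.390 times the density at the central site that the 8 h library without Dex had, a log2 ratio of -1.36. This was close to the median of -1.20 (quartiles -1.56 and -0.67) over the 202 regions shared by the lists, of which 84 had a lower ratio. The level relative to resting cells was 1.74, a log2 ratio of 0.80, against a median of 0.29 over 25 shared regions, 3 of which were higher. The site was picked by its 3 h score at a locus chosen on RelA scores. Nothing is thus read from its place among these 25.

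The listed region at the central site was widest in the libraries of highest density. It was 463 bp wide with pretreatment at 0 h, 606 bp with pretreatment at 3 h and 684 bp with late Dex. In cells without Dex it measured 595 bp before LPS, 1257 bp after 3 h and 1180 bp after 8 h. The 3 narrower Dex regions and the resting region lay within the 3 h region, with centres 33.0 to 85.5 bp to the right of its centre. The GR region of LPS and Dex at this site was 628 bp wide, and its centre lay 190.5 bp to the right of the RelA centre at 3 h.

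**Figure D3:**
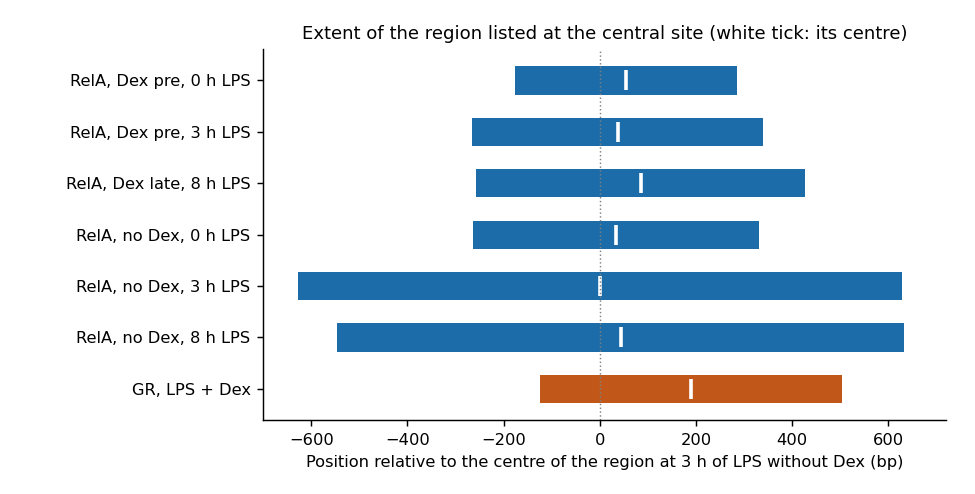
Extent of the region listed at the central site in each library, in bp relative to the centre of the region at 3 h without Dex. White ticks mark the centres. The regions without Dex at 3 h and 8 h span 1257 and 1180 bp, the others 463 to 684 bp.

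The left flanking site, 5.99 kb from the central one, had the highest GR density of the window in both GR lists, and RelA in LPS-treated cells without Dex or with late Dex. At chromosome 10, 18728803 to 18729622, RelA density was 22.7 with late Dex, and without Dex it was 76.0 after 3 h and 49.6 after 8 h, with scores of 11.8, 38.4 and 27.1. It was called neither in resting cells nor in the 3 pretreated libraries. GR density there was 153 with LPS and Dex and 41.5 with Dex, ranks 141 of 51639 and 363 of 55196. The late Dex library had 0.457 times the RelA density of 8 h without Dex, a log2 ratio of -1.13, beside the median of -1.20. The late Dex region was 327 bp wide, against 707 bp at 8 h without Dex.

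The right distal site, 62.7 kb from the central one, was called for RelA at both LPS times without Dex and in no RelA library with Dex. At chromosome 10, 18797348 to 18798444, RelA density was 53.4 at 3 h and 38.2 at 8 h, with scores of 34.01 and 22.0. GR density was 70.3 with LPS and Dex, and no GR region overlapped with Dex alone. A weak GR region of the Dex list lay beside it, at 18798824 to 18799176, with a density of 2.39. The missing call with late Dex was shared by many regions at least as dense. Of the 373 regions at 8 h with a density of at least 38.2, 40.5% were called with late Dex. That bound was the site's own density, so the share at that density alone is not given.

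The other 5 RelA sites were listed at 3 h without Dex alone, with densities of 17.7 to 28.7, beside a median of 18.5 in that list. The site 68.8 kb to the left, at 18666160 to 18666661, had a density of 18.2. The site 50.3 kb to the left, at 18684686 to 18685039, had 17.7 and the lowest score of the 8, 9.40, close to the lowest in the list, 8.88. These left sites were the only RelA sites without GR in either list.

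To the right, the 3 h sites with GR lay 30.8, 48.2 and 83.6 kb away. At 18765687 to 18766337 RelA density was 28.7 and GR density 25.9 with LPS and Dex. The site at 18783191 to 18783638 had a RelA density of 24.7 and a GR density of 38.3. The site at 18818450 to 18819131 had a RelA density of 28.7 and a GR density of 50.9. None of the 3 met a GR region of the Dex list.

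Part of the RelA sites of 3 h were called again at 8 h of LPS. Of the 8 regions at 3 h, 3 were called at 8 h, against 31.3% of the whole 3 h list outside input regions, a share near that of the window. The 3 called again were the 3 densest, with densities of at least 53.4, and the 5 others had 17.7 to 28.7. Among the 206 regions of the 3 h list with a density of at least 53.4, 93.7% were called at 8 h, and among the 1812 with a density from 17.7 to 28.7, 31.7% were. Both bounds were taken from the window's own called and uncalled regions, so its counts within them are fixed and nothing is read from them. All 3 regions at 8 h were called at 3 h, against 83.9% of the 8 h list.

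At the 3 sites called at both times the density at 8 h was below that at 3 h. The log2 ratio was -0.62 at the left flanking site, -0.27 at the central site and -0.48 at the right distal site, ratios of 0.653, 0.830 and 0.716. The median over the 1576 regions at 8 h that met one at 3 h was 0.03 (quartiles -0.36 and 0.35). A share of 12.5%, 29.6% and 18.5% of those regions had a lower ratio than these sites. The 3 sites had 3 h densities of at least 53.4, against a median of 18.5 in the 3 h list, at a locus chosen on RelA scores. The 1576 regions were not matched to them in density, so these shares are not read as a trait of the locus. The ratio of the central site was the closest to 1 of the 3.

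Read across Dex timing, late Dex was called at 2 of the 8 RelA sites of 3 h, against 4.24% of the whole 3 h list, and at 2 of the 3 sites of 8 h, against 10.8% of the 8 h list. Pretreatment was called at 1 of 8 with 0 h of LPS (0.603% of the list), at 1 of 8 with 3 h (0.241%) and at 0 of 8 with 8 h (0.0805%). At 8 h it was called at 0 of 3 (0.16% of the 8 h list). The resting library was called at 1 of 8 (0.744%). The late Dex calls were at the central and left flanking sites, and each single call was at the central site. The scores of the central site were known when the locus was chosen, and nothing is read from these counts. Among the 206 regions at 3 h with a density of at least 53.4, 5.34% were called with pretreatment and 3 h of LPS.

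**Figure D4:**
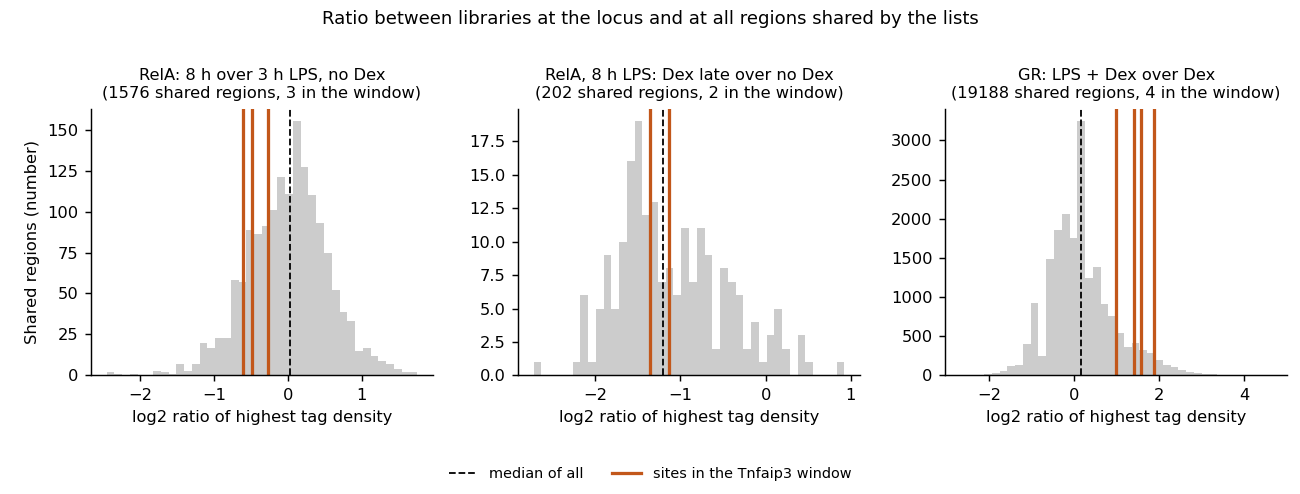
Log2 ratio of highest tag density at all regions shared by the lists (grey histograms, number of regions) and at sites of the window (orange lines), with the median of all as a dashed line. The window sites lie below the median for 8 h over 3 h, at -0.62 to -0.27. They lie on both sides of it for late Dex over no Dex, at -1.36 and -1.13. For GR with LPS and Dex over Dex they lie above it, at 0.98 to 1.88. That GR median, 0.16, is mostly of regions of low density. Over the 3177 regions with a density of at least 10 in both lists it was 1.16, with window sites on both sides.

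GR with LPS and Dex was spread over the whole window, and GR with Dex alone over few sites. The window held 18 regions of LPS plus Dex and 6 of Dex. All 18 had a tag density of at least 10, against 31.9% of that list, and 4 of the 6 with Dex did, against 6.8% of that list. Outside input regions, the whole lists held 16366 regions of that density with LPS and Dex and 3733 with Dex. More dense GR regions with LPS and Dex was thus not particular to the window. With LPS and Dex the densities ran from 21.4 to 153 with a median of 33.4, and with Dex from 2.39 to 41.5 with a median of 13.7. Of the 18 regions, 4 met a region of the Dex list, against 21.7% of all LPS and Dex regions of that density. Conversely 4 of the 6 Dex regions met one of LPS and Dex, against 35.0% of that list, and these were the 4 with a density of at least 10, a class in which 89.4% of the Dex list met LPS and Dex.

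At the 4 sites with GR in both lists the density was higher with LPS and Dex. The left flanking site had 153 with LPS and Dex and 41.5 with Dex, a log2 ratio of 1.88. The site 47.1 kb to the right, at 18781724 to 18782800 in the LPS and Dex list, had 89.6 and 29.9, a log2 ratio of 1.58, and no RelA. The site 83.8 kb to the left, at 18651022 to 18651762, had 26.6 and 10.0, a log2 ratio of 1.40. The site 71.8 kb to the left, at 18663005 to 18663766, had 34.1 and 17.3, a log2 ratio of 0.98. The median was 0.16 over the 19188 LPS and Dex regions that met a Dex region, most of them of low density, and 1.16 (quartiles 0.42 and 1.68) over the 3177 with a density of at least 10 in both lists. Against that second median, 3 of the 4 sites lay above the median and 1 below.

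The central site, the densest for RelA, was not the densest for GR and had no GR region with Dex alone. Its GR density with LPS and Dex was 47.7, below that of the left flanking site (153), the GR site 47.1 kb to the right (89.6), the right distal site (70.3), a GR site 80.1 kb to the right without RelA (58.9) and the RelA site 83.6 kb to the right (50.9). The order of the sites by GR density thus differed from their order by RelA density. The RelA and GR samples were treated and cross-linked differently: RelA with 1% formaldehyde for 10 min, and GR with 2 mM disuccinimidyl glutarate for 30 min before formaldehyde, per the labels.

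GR sites without RelA lay on both sides of the central site, 9 to the right and 5 to the left. Of these 14 sites, 9 were in the list of LPS and Dex alone, 3 in both lists and 2 in that of Dex alone. The densest of the 9 was at 18815025 to 18815670 (58.9), followed by 18773178 to 18773901 (45.8), 18753376 to 18753899 (32.7) and 18647077 to 18647599 (30.1). The remaining 5 had densities of 21.4 to 25.7, at 18634631 to 18635122, 18767160 to 18767627, 18788107 to 18788566, 18814135 to 18814637 and 18828148 to 18828506. The 2 sites of Dex alone were weak, 2.99 at 18629939 to 18630247 and 2.39 beside the right distal RelA site.

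RelA and GR of LPS and Dex met at most RelA sites, as they did over the whole lists. Of the 8 RelA regions at 3 h, 6 met a GR region of LPS and Dex, against 62.0% of the 3 h list, and 1 met a GR region of Dex, against 17.5%. At 8 h all 3 met GR of LPS and Dex, against 85.8% of the 8 h list, and 1 met GR of Dex, against 18.4%. With late Dex both regions met GR of LPS and Dex, against 95.1%, and 1 met GR of Dex, against 31.6%. With so few regions in the window, none of these counts is read as differing from its list's share. Seen from GR, 6 of the 18 LPS and Dex regions met RelA at 3 h, against 18.7% of the regions of that density, and 3 met RelA at 8 h, against 9.72%.

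The centres of RelA and GR lay 18 to 93.5 bp apart at 5 of the 6 shared sites at 3 h, and farthest apart at the central one at 3 h and 8 h without Dex. At 3 h the distance to the GR centre of LPS and Dex was 18 bp at the left flanking site, 190.5 bp at the central site and 23.0 bp at the right distal site. At the other 3 sites it was 49.0, 93.5 and 31.0 bp. The median over the 3129 overlapping pairs of the lists was 54.0 bp. At 8 h the distances were 28.0, 147 and 21.5 bp, beside a median of 44.5 bp, and with late Dex they were 113 bp at the left flanking site and 105 bp at the central one, beside 43.8 bp. Pairs were taken only where regions overlapped, and a wide region allows a greater distance.

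Outside the window, 6 other RelA regions had the same calls as the central site, in all RelA libraries but the pretreated 8 h one. By the mean difference in score percentile within a list, over the 6 lists that called them, the most alike was chromosome 3, 131360829 to 131361842, with 9.76 percentile points. Next came 167602606 to 167603704 on chromosome 2 (12.9 points) and 78976843 to 78978080 on chromosome 3 (17.8 points). They were followed by 77597384 to 77599198 on chromosome 10 (21.3 points) and 48779399 to 48780256 on chromosome 6 (24.1 points). At the most alike region RelA density was 20.9 and 18.9 with pretreatment at 0 and 3 h of LPS, 30.6 with late Dex, and 26.0, 87.4 and 75.8 without Dex at 0, 3 and 8 h. Its GR density was 136 with LPS and Dex and 23.7 with Dex, so it differed from the central site in having GR in both lists. The other named regions on chromosomes 2 and 3 also had GR in both lists. Those on chromosomes 10 and 6 were like the central site, with no GR region with Dex alone and densities of 48.8 and 48.4 with LPS and Dex.

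**Figure D5:**
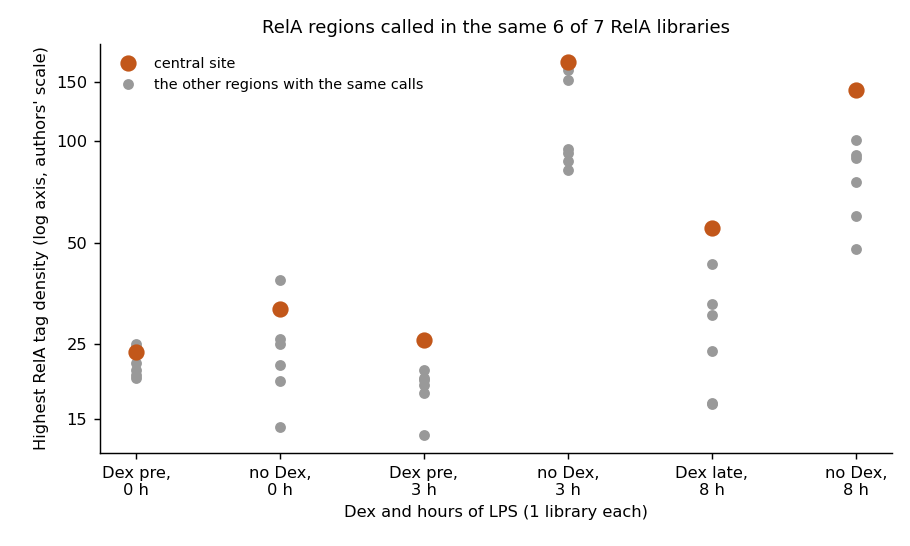
Highest RelA tag density (log axis, authors' scale) in the 6 libraries that called the central site (orange) and the 6 other RelA regions with the same calls (grey), 1 library per column. The central site is the highest of the 7 in each column but those before LPS. It has 25.7 with pretreatment and 3 h, 55.5 with late Dex, and 171 and 142 after 3 h and 8 h without Dex. It was picked by its 3 h score, so its place among the 7 is partly built in.

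All 7 of these regions were denser at 3 h without Dex than with pretreatment, which is not particular to them. Each of the 12 regions called in both 3 h libraries outside input regions was too, with log2 ratios of pretreatment over none of at most -1.28. The central site had the highest density of the 7 in the pretreated 3 h library (25.7), with late Dex (55.5), and without Dex at 3 h (171) and 8 h (142). Before LPS the highest was that of chromosome 6, with 25.04 after pretreatment and 38.8 in resting cells. The central site was picked by its 3 h score at a locus chosen on RelA scores. Its place among the 7 is thus partly built in, and nothing is read from it.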

How the data were processed

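Regions of enrichment were taken from 10 deposited lists, 1 per library, from C57BL/6J bone marrow macrophages. Reads of 51 nt were processed with CASAVA and placed on mm9; this comes from the submitters' processing notes. How regions were called, and at which cutoff, was not given in the sources used here. The highest and mean tag density are signal values made by the authors, per the file headers, with a scaling that is not stated. Each region also has a score, a z-score made by the authors, and a deposited p-value, which was not used. No depth is given, so no interval could be set on a value.

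Window regions, sites, shares and log2 ratios were computed with Python 3.11.15, pandas 2.3.3 and NumPy 2.4.6, and the overlap step was checked on simulated lists. Regions met when they shared at least 1 bp. Shares over whole lists left out regions overlapping input. For a ratio, each region was paired with its densest overlapping partner. Sites with RelA were all named, as were GR sites with a density of at least 10; the weak ones were named as well. The members, lists and bands of density were chosen with earlier results of these data known, and the motifs with the sequence seen. Promoter sequences are RefSeq's on GRCm38.p6.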

Additional observations from a re-analysis of the deposited data

How the results depend on the processing

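Of 88 alternative values for 25 results, 74 stayed within 1.5 times the reported value and 14 did not. Some of the 74 could not move, so their number is not a measure of robustness. No window region met an input region, so leaving such regions out changed nothing. The pretreated 8 h list had no window region to lose, and all 18 GR regions of LPS and Dex already had a density of at least 10. With a window of 110 kb about the same centre, RelA at 3 h had 5 regions and GR had 8 with LPS and Dex and 2 with Dex, and with one of 440 kb GR with LPS and Dex had 29. In the higher-scoring part (50%) of each list, 5 RelA regions remained in the window at 3 h, 0 with pretreatment at 0 h and 1 with late Dex. Under an overlap of 50% or more of each region, 1 region of 3 h and 1 of 8 h were called with late Dex, and 0 of 3 h with pretreatment at 0 h and 0 with pretreatment at 3 h, since the pretreated regions at the central site are under 50% as wide as that of 3 h. With the RelA lists alone, an alternative chosen after seeing the data, the window held 8 sites. Relative to the median of shared regions, the log2 ratio at the central site was -0.16 for late Dex over no Dex at 8 h and -0.51 for pretreatment over none at 3 h. The ratio of the GR libraries there could not be computed, as no region was called with Dex alone. No paired analysis was possible because each condition had 1 library. With 1 library per condition and unknown depth, a region not called is not shown to be unbound.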

Other observations

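Within 110 kb of the centre of the central site, 8 RelA regions of 3 h lay, itself included. The median over all 4972 regions at 3 h was 2 (quartiles 1 and 4) with a maximum of 14, and 250 of them (5.03%) had as many, 3 of these in the window. For RelA regions of 8 h the number was 3, against a median of 1 (quartiles 0 and 2) and a maximum of 9. As many lay around 753 of the 4972 regions (15.1%), 6 of them in the window. For GR with LPS and Dex at a density of at least 10 the number was 19, against a median of 5 (quartiles 3 and 8) and a maximum of 23, and 11 of the 4972 regions (0.221%) had as many, 4 of them in the window. For such GR with Dex it was 4, against a median of 1 (quartiles 0 and 2) and a maximum of 21, and 295 regions (5.93%) had as many, 3 of them in the window. The window was chosen for its RelA sites, and regions near each other share these counts.

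The nearest RelA region of 3 h beyond the window lay 65.7 kb past its right edge, at chromosome 10, 18905664 to 18906703, with a density of 43.5. It was called at 8 h as well, at 18905809 to 18906342, with 24.7. The nearest GR region of LPS and Dex beyond the window lay 4.55 kb past the same edge, with a density of 29.1. The outermost window regions of that list lay 14.6 kb and 11.5 kb inside the edges, with densities of 21.4 and 24.9.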
